A study of Mus musculus with 18 samples.

Results

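The unoperated knee of mice that had surgery on the other knee was examined for changes between 2 and 4 weeks after that surgery. The comparison used 6 of the 18 arrays of the series, chosen by their labels alone: the 3 contralateral arrays of week 4 and the 3 contralateral arrays of week 2. All mice were male C57Bl6/J and had destabilisation of the medial meniscus (DMM) of the right knee at 10 weeks of age, so the mice were 14 weeks old at week 4 and 12 weeks old at week 2. Arrays of week 8, which enter later as a comparison and in the fits of all 18 arrays, came from mice 18 weeks old. The left knee was left alone and is called contralateral. Each array held RNA from micro-dissected cartilage of the medial tibial plateau, pooled from 8 mice, so n = 3 pools per group and the arrays of the 2 weeks came from different mice. No mouse here was free of surgery or had a sham operation, and age and time since surgery cannot be told apart. The deposited values are log2 intensities of 22999 probes of an Illumina mouse bead array, quantile-normalised by the authors. Unless another probe is named, a gene stands for its brightest probe, and 11499 genes were measured in this way.

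Articular cartilage is built by chondrocytes, which hold a network of type II collagen and aggrecan together and have no blood vessels among them. Directly around the tibial plateau lie subchondral bone with its marrow, the fat and synovium of the joint, and the skeletal muscles that cross the knee. Marrow is where granulocytes mature: they make the proteins of their azurophil granules first, then those of the specific and gelatinase granules. Fast muscle fibres use their own forms of myosin light chains, troponins and calcium pumps, distinct from those of slow fibres.

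Genes that define cartilage were measured on arrays whose values ran from 4.62 to 14.67, and the 22 chondrocyte markers averaged 9.24 ± 0.02 at 4 weeks and 9.42 ± 0.105 at 2 weeks (SD, n = 3 each). *Comp*, an organiser of matrix assembly, averaged 13.08 ± 0.09 at 4 weeks and 13.05 ± 0.05 at 2 weeks (SD). *Sox9*, the master transcription factor of chondrocytes, averaged 12.04 ± 0.16 at 4 weeks and 12.06 ± 0.13 at 2 weeks. Contractile muscle genes and neutrophil genes were measured in the same RNA, with mean levels over their lists of 8.29 and 7.90 at 4 weeks, against 7.55 and 6.85 at 2 weeks. In such bulk RNA, more cells of a type and more RNA per cell cannot be told apart. One array stood apart: contralateral replicate 2 of week 2 correlated with the other 5 arrays at r = 0.938 to 0.949 over all probes, while pairs among the other 5 lay between 0.953 and 0.971.

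At the adjusted threshold of 0.05 in limma, 34 of 22999 probes differed between 4 and 2 weeks (0.148%), 33 higher (0.143%) and 1 lower (0.00435%) at 4 weeks. They represent 21 genes higher and 1 gene lower, and 6 of the probes have no gene name in the annotation used. Of these 22 genes, 9 are on the 2 muscle lists and 6 on the neutrophil list used below. The log2 differences of the called probes had sizes from 0.95 to 2.03, and for all 34 the 3 arrays of one week lay on one side of the 3 of the other, as in 6.6% of all probes with 4 weeks higher and 6% with 4 weeks lower. At an unadjusted p under 0.05 there were 856 higher probes (3.72%) and 830 lower ones (3.61%), and the median difference over all genes was 0.005. The calls rest on few arrays. Of the 21 genes whose brightest probe was called, 0 stayed called without 4-week replicate 1 and 2 without 4-week replicate 3. Without 2-week replicate 1 there were 6, and without 2-week replicate 3 there were 3. Their direction could not turn in these fits, because the groups of arrays of every called probe did not overlap. When all 18 arrays or the 9 contralateral arrays shared 1 estimate of the spread, 1 probe was called, and that probe has no gene name in the annotation used. The authors reported no expression difference between the control joints of these weeks. They selected probes before their tests, which was not done here.

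To show both groups at the level of sequence, promoters of called genes are printed from RefSeq (GRCm38.p6), each 300 bases long and ending shortly after the gene's start. The granule genes are *Ltf*, at chr9:111019042-111019341 on the plus strand, and *Ngp*, at chr9:110419558-110419857 on the plus strand. Capitals mark matches on either strand to TTNNGNAA, the core bound by C/EBP factors of the granulocyte line, and to GAGGAA, part of the site of the myeloid factor PU.1.
Ltf: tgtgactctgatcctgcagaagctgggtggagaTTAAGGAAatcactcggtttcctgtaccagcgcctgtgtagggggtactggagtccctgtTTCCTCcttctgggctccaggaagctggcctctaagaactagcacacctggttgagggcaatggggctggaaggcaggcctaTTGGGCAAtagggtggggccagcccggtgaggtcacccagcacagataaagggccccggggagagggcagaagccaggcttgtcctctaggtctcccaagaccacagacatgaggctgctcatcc
Ngp: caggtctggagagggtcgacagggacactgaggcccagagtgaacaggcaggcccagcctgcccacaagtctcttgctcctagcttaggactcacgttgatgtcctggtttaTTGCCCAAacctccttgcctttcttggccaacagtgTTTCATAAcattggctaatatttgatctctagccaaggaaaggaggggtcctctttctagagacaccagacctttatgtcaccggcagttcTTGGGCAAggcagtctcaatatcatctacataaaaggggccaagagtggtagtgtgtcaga
The muscle genes are *Tnnc2*, at chr2:164779685-164779984 on the minus strand, and *Ttn*, at chr2:76982498-76982797 on the minus strand. Here capitals mark CANNTG, the E-box read by myogenic factors such as MyoD, and the MEF2 site.
Tnnc2: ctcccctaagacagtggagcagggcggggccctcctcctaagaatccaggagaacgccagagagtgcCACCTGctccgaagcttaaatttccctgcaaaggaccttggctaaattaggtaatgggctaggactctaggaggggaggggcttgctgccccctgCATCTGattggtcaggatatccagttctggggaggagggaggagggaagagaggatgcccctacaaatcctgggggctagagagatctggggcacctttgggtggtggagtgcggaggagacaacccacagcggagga
Ttn: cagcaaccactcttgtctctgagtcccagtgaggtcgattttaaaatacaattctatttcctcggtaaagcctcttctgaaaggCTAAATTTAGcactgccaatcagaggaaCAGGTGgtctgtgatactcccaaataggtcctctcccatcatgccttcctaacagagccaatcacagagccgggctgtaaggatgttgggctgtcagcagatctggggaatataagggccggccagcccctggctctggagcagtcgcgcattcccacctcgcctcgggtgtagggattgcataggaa
These 4 were picked because they hold such matches, which overlap in none of the 4. All 6 called neutrophil genes matched a promoter of the table, and 4 of the 6 held TTNNGNAA and 4 held GAGGAA, against 40.7% and 28.3% of all 32851 promoters. Of the 9 called muscle genes 5 matched a promoter. All 5 held CANNTG and 2 held a MEF2 site, against 72.3% and 3.19% of all promoters. The same motifs were counted in the other group too. TTNNGNAA was in 5 and GAGGAA in 2 of the 5 muscle promoters, while CANNTG was in 3 and a MEF2 site in 0 of the 6 neutrophil promoters, so TTNNGNAA, GAGGAA and CANNTG were each found in both groups. The promoter of *Camp* held neither TTNNGNAA nor GAGGAA in this window.

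A share of the genes of the muscle contractile apparatus was higher at 4 weeks. Of 27 measured genes, from fast, slow and cardiac forms together, 8 passed the adjusted threshold, all higher, against 0.174% of all genes called higher (background 20 of 11499). At an unadjusted p under 0.05, 17 were higher and 0 lower, where 4.11% and 3.25% of all genes lie. The groups of arrays did not overlap in 16 of the 27, all higher, against 6.99% of all genes higher and 5.46% lower. Their median log2 difference was 0.98, beside 0.005 for all genes, and 7 of the 27 had differences below 0. The mean level of the list was 8.54, 8.0 and 8.34 on the 4-week arrays and 7.37, 7.92 and 7.36 on the 2-week arrays, so replicates 2 of both weeks lay close together.

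The regulatory light chain gene of fast myosin, *Mylpf*, had log2 intensities of 9.42, 8.80 and 9.53 at 4 weeks, against 7.25, 7.94 and 7.39 at 2 weeks. The groups did not overlap, and the difference was 1.72 (SE 0.23, adjusted p = 0.0209 by limma), a fold of 3.30. Its second probe was called too, at 1.83. The other light chain gene of fast fibres, *Myl1*, had 10.15, 9.72 and 10.30 at 4 weeks and 8.17, 8.98 and 8.42 at 2 weeks (difference 1.53, SE 0.22, adjusted p = 0.0289). The heavy chain they attach to, encoded by *Myh4*, is among the brightest muscle signals here, with 11.45, 11.01 and 11.34 at 4 weeks and 9.70, 10.54 and 10.01 at 2 weeks. Its arrays did not overlap either, and its difference of 1.18 missed the adjusted threshold (adjusted p = 0.0763 by limma).

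On the thin filament, the calcium sensor of fast fibres is encoded by *Tnnc2*, which had 10.48, 9.87 and 10.18 at 4 weeks, against 8.30, 9.08 and 8.49 at 2 weeks. Its difference was 1.55 (SE 0.22, adjusted p = 0.0270). *Tnnt3*, the gene of the fast troponin that binds tropomyosin, had 10.66, 9.99 and 10.36 at 4 weeks, against 8.53, 9.27 and 8.77 at 2 weeks, a difference of 1.48 (SE 0.22, adjusted p = 0.0295). In both genes the highest array of week 2 was replicate 2 and the lowest array of week 4 was also replicate 2. *Acta1*, the skeletal actin gene, followed the same order with a difference of 1.39 that missed the threshold (adjusted p = 0.145). *Actc1*, the actin gene of the heart that developing muscle also uses and no member of the list, passed at 1.59 (adjusted p = 0.0470), with 8.53, 7.94 and 8.31 at 4 weeks and 6.01, 7.07 and 6.91 at 2 weeks.

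The giant proteins that span the sarcomere belong to the same group. *Neb*, the gene of nebulin, the ruler of the thin filament, had 9.54, 8.92 and 9.13 at 4 weeks, against 7.29, 7.84 and 7.33 at 2 weeks (difference 1.71, SE 0.20, adjusted p = 0.00994). *Ttn* encodes titin, the elastic spring between the Z-disc and the M-band, and is read by 9 probes. Of these, 4 were called, at 1.19, 1.28, 1.40 and 1.70, and the smallest of the 9 differences was 0.43. *Xirp2*, whose product binds actin at the Z-disc and at cell junctions, was higher by 1.45 (adjusted p = 0.0329), and *Myoz1*, a Z-disc protein of fast fibres, by 1.05 (adjusted p = 0.0343).

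**Figure D1:**
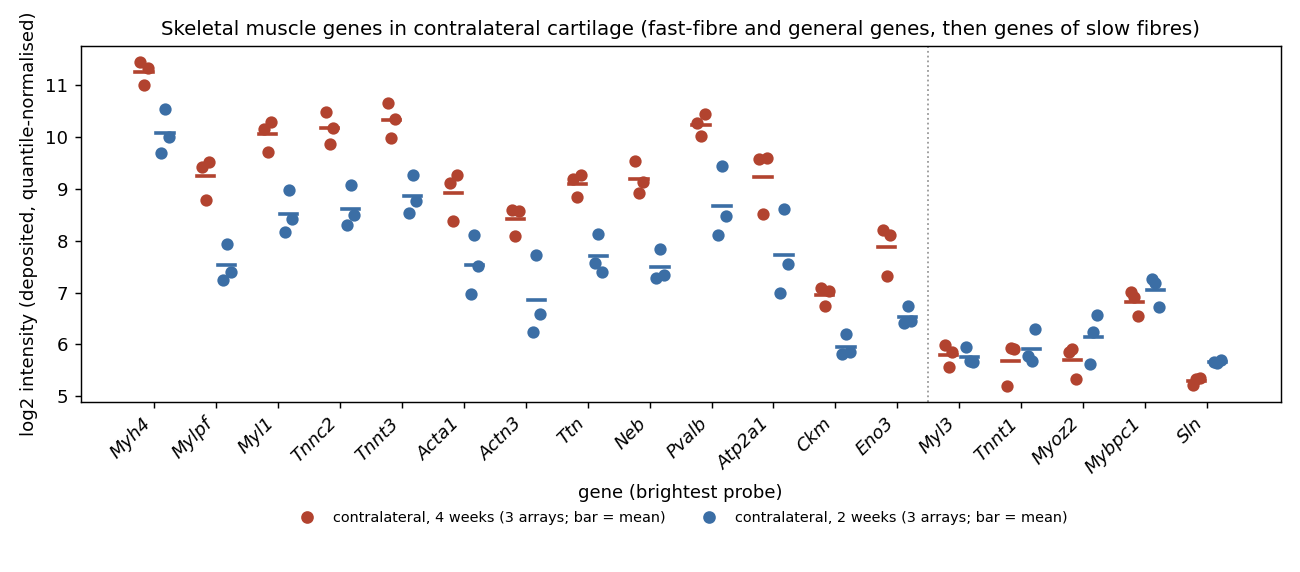
Log2 intensity (vertical axis) of 18 skeletal muscle genes (horizontal axis), each point 1 contralateral array and each bar the mean of 3 arrays, 4 weeks left of 2 weeks. In most genes left of the dotted line the points of 4 weeks lie above those of 2 weeks, *Myh4* for example at 11.01 to 11.45 against 9.70 to 10.54, whereas the 5 genes right of it, known from slow fibres, lie near the low end of the scale at both weeks. The genes drawn are a selection. *Myh1* and *Ldb3*, both with differences below 0, are not drawn.

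Several genes known from slow fibres, named after their values were seen, were not called by their brightest probe. *Myl3*, a light chain gene of slow and cardiac myosin, averaged 5.80 ± 0.21 at 4 weeks and 5.77 ± 0.16 at 2 weeks (difference 0.04, adjusted p = 0.977). *Tnnt1*, the slow troponin T gene, had a difference of -0.24 (adjusted p = 0.858), and *Mybpc1*, a myosin-binding protein of slow fibres, one of -0.23 (adjusted p = 0.825). *Sln*, which encodes the pump inhibitor sarcolipin, was the 1 muscle gene lower at an unadjusted p under 0.05, at -0.37 (adjusted p = 0.589). These genes lie at log2 intensities between 5.21 and 7.26 on the 6 arrays, and whether they stood above background could not be read from the normalised values. A fast-fibre gene also went against the rest: *Myh1*, a fast myosin heavy chain, ranged from 6.53 to 9.85 within week 4 alone (difference -0.44, adjusted p = 0.921). *Ldb3*, a Z-disc gene, had 9.49 on 2-week replicate 2 and between 5.78 and 6.57 on the other 5 arrays.

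A second muscle list covers calcium handling and fuel use, and there 1 of 22 genes was called. It was *Trdn*, the gene of triadin, which anchors the calcium store to its release channel, with 6.45, 6.60 and 6.70 at 4 weeks and 5.56, 5.72 and 5.63 at 2 weeks (difference 0.95, SE 0.14, adjusted p = 0.0329). At an unadjusted p under 0.05, 14 of the 22 were higher and 1 lower, against 4.11% and 3.25% of all genes. The list's median difference was 0.65. The mean level of this list was 7.47, 6.97 and 7.39 on the 4-week arrays and 6.49, 7.0 and 6.48 on the 2-week arrays, so 2-week replicate 2 lay level with 4-week replicate 2. Genes with larger differences that missed the adjusted threshold were *Pvalb*, a calcium buffer of fast fibres (1.57, adjusted p = 0.0763), and *Eno3*, the muscle enolase of glycolysis (1.35, adjusted p = 0.0534). *Atp2a1*, the calcium pump of fast fibres, had 9.58, 8.51 and 9.60 at 4 weeks, against 6.99, 8.61 and 7.56 at 2 weeks. Its groups overlapped, and its difference of 1.51 was not called (adjusted p = 0.297). *Ckm*, the muscle creatine kinase gene, had a difference of 0.99 (adjusted p = 0.0537).

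Besides *Actc1*, other called genes outside these lists are used mainly or partly in muscle. *Rpl3l*, a ribosomal protein gene of striated muscle, was higher by 1.36 (SE 0.20, adjusted p = 0.0289). *Tpm3*, which yields a slow-muscle tropomyosin and broadly used forms, was called by 1 of its 3 probes at 1.15 (adjusted p = 0.0289), whereas its brightest probe gave -0.08 (adjusted p = 0.933). Both were outside the rule for named genes and were chosen after their values were seen. None of the 8 calls of the contractile list remained without 4-week replicate 1 or 3 or without 2-week replicate 1 or 3, where the list's median difference was 0.85, 0.96, 0.86 and 0.92. There were 12 such calls without 4-week replicate 2 and 11 without 2-week replicate 2.

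Granulocyte genes formed the other group that was higher at 4 weeks. Of 18 measured genes of neutrophils and their precursors, 6 passed the adjusted threshold, all higher (background 0.174%). At an unadjusted p under 0.05, 14 were higher and 0 lower, against 4.11% and 3.25% of all genes. The median log2 difference of the 18 was 1.27. The mean level of the list was 8.16, 7.57 and 7.96 on the 4-week arrays and 6.89, 7.0 and 6.66 on the 2-week arrays.

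The azurophil granules, filled first, hold myeloperoxidase, the enzyme that makes hypochlorous acid. Its gene *Mpo* had log2 intensities of 8.96, 8.65 and 9.22 at 4 weeks, against 7.44, 7.41 and 7.48 at 2 weeks. The difference was 1.50 (SE 0.17, adjusted p = 0.00658 by limma), a fold of 2.84, and 3 of its 4 probes were called. *Ctsg*, the gene of the granule proteinase cathepsin G, had 6.40, 6.30 and 6.80 at 4 weeks and 5.57, 5.41 and 5.66 at 2 weeks, a difference of 0.95 that missed the adjusted threshold (adjusted p = 0.0657). The other proteinases of these granules did not differ beyond their spread. *Elane*, neutrophil elastase, had a difference of 0.18 (adjusted p = 0.918), and *Prtn3*, proteinase 3, one of -0.02 (adjusted p = 0.990).

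Proteins of the specific granules follow. *Ltf* encodes lactoferrin, which binds iron, and had 9.52, 8.80 and 9.03 at 4 weeks, against 7.57, 7.66 and 7.04 at 2 weeks (difference 1.69, SE 0.22, adjusted p = 0.0174). A weaker probe of the same gene, near the low end of the scale, gave 0.23 (adjusted p = 0.783). *Camp*, the gene of the antimicrobial peptide cathelicidin, had 9.43, 8.30 and 8.98 at 4 weeks, against 7.39, 7.16 and 6.71 at 2 weeks. Its difference of 1.81 (SE 0.27, adjusted p = 0.0289), a fold of 3.51, was larger than that of any other called gene of the list.

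*Ngp*, a neutrophil granule protein related to the cathelicidins, was brighter than these, with 10.45, 9.91 and 10.17 at 4 weeks and 8.97, 8.50 and 7.99 at 2 weeks (difference 1.69, SE 0.24, adjusted p = 0.0268). *Lcn2*, whose product withholds iron from bacteria by binding siderophores, had 7.99, 7.22 and 7.66 at 4 weeks and 6.15, 6.42 and 5.98 at 2 weeks (difference 1.44, SE 0.20, adjusted p = 0.0268). *Cd177*, a surface protein of neutrophils, had 7.66, 7.16 and 7.50 at 4 weeks and 6.36, 6.0 and 5.65 at 2 weeks (difference 1.44, SE 0.20, adjusted p = 0.0268). In all 6 called genes the lowest 4-week array was replicate 2, and it still lay above every 2-week array.

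**Figure D2:**
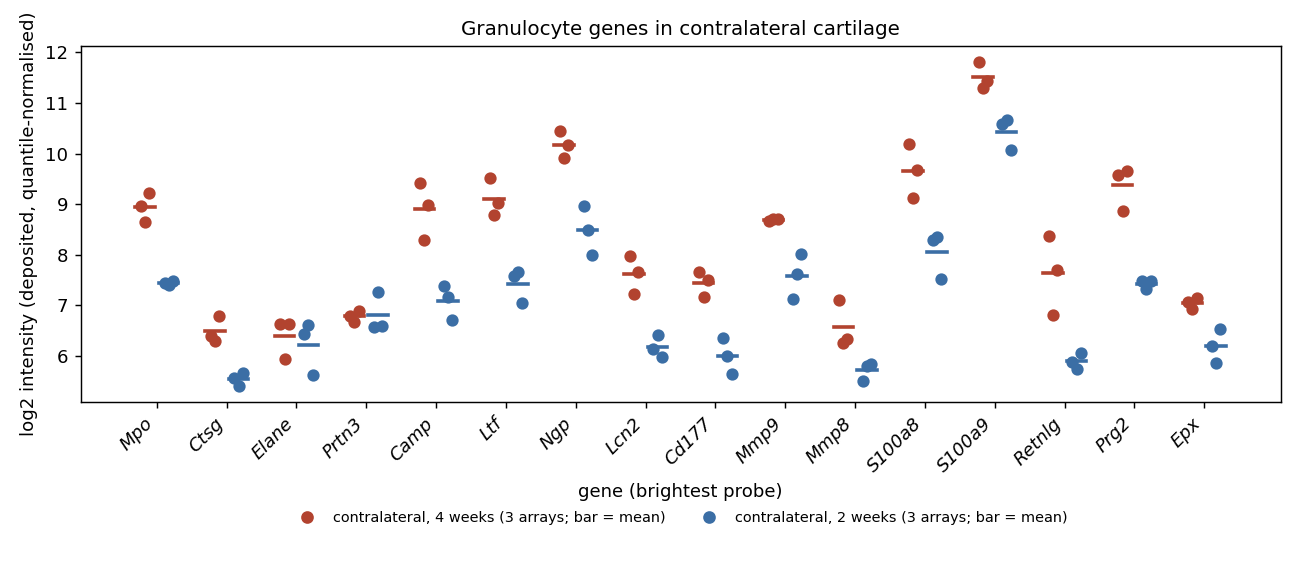
Log2 intensity (vertical axis) of 16 granulocyte genes (horizontal axis), each point 1 contralateral array and each bar the mean of 3 arrays, 4 weeks left of 2 weeks. The 4-week points lie clear above the 2-week points in 14 of the 16 genes drawn, *Mpo* for example at 8.65 to 9.22 against 7.41 to 7.48, and mix in *Elane* and *Prtn3*. *Csf3r*, whose groups separate the other way, is not drawn.

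Genes that mature neutrophils use in quantity, named next, all missed the adjusted threshold. *S100a8*, a subunit of the calcium-binding protein calprotectin, had 10.19, 9.11 and 9.67 at 4 weeks, against 8.30, 8.36 and 7.53 at 2 weeks. Its difference of 1.60 missed the adjusted threshold (adjusted p = 0.0657), as did that of its partner *S100a9* (1.07, adjusted p = 0.0781). *Mmp9*, the gelatinase of late granules that osteoclasts make too, had 8.67, 8.70 and 8.70 at 4 weeks and 7.13, 7.62 and 8.01 at 2 weeks (difference 1.10, adjusted p = 0.0818). *Mmp8*, the collagenase of neutrophils, had a difference of 0.85 (adjusted p = 0.330). *Retnlg*, a resistin-like gene of neutrophils, reached 1.73 (adjusted p = 0.0676). *Csf3r*, the receptor for the granulocyte growth factor, had 6.07, 6.01 and 6.14 at 4 weeks and 6.27, 6.41 and 6.21 at 2 weeks (difference -0.23, adjusted p = 0.765). Of the 18 genes it alone had every 4-week array below every 2-week array, against 5.46% of all genes. The opposite order held in 14 of the 18, against 6.99% of all genes. The 2 other probes of *Csf3r* had differences of 0.73 and 0.16.

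*Prg2*, the major basic protein of eosinophil granules, had the largest difference of all named genes that were called. It measured 9.59, 8.87 and 9.66 at 4 weeks, against 7.48, 7.33 and 7.48 at 2 weeks (difference 1.94, SE 0.21, adjusted p = 0.00617), a fold of 3.85. *Epx*, the peroxidase of eosinophils, chosen after its values were seen, did not overlap either and had a difference of 0.84 (adjusted p = 0.173). *Chil1*, which encodes a chitinase-like protein made by neutrophils, macrophages and chondrocytes, had 10.06, 9.99 and 10.19 at 4 weeks, against 8.85, 8.31 and 8.81 at 2 weeks (difference 1.42, SE 0.17, adjusted p = 0.0115). Without 4-week replicate 1 none of the 6 neutrophil calls remained. Without 4-week replicate 3 or 2-week replicate 3 there was 1, and without 2-week replicate 1 there were 3, while the median difference of the list stayed between 1.15 and 1.29 in these 4 fits. Without 4-week replicate 2 there were 9 neutrophil calls, and without 2-week replicate 2 also 9.

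Other genes of marrow and of dividing cells were mostly not called. *Lmnb1*, the gene of the nuclear lamina protein lamin B1, was called at 1.07 (SE 0.17, adjusted p = 0.0339), with 7.66, 7.23 and 7.35 at 4 weeks and 6.28, 6.23 and 6.53 at 2 weeks. Replication-dependent histone genes, transcribed while DNA is copied, had 0 of 29 members past the adjusted threshold and a median difference of 0.53. At an unadjusted p under 0.05, 18 were higher and 0 lower, against 4.11% and 3.25% of all genes. *H2bc12*, an H2B gene, had 9.13, 8.62 and 9.58 at 4 weeks, against 7.92, 7.89 and 7.72 at 2 weeks (difference 1.27, adjusted p = 0.0595). Histone genes are near-identical copies, so their probes may not read independent transcripts.

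Among 34 cell cycle genes 0 passed the adjusted threshold. At an unadjusted p under 0.05, where 4.11% and 3.25% of all genes lie, 6 were higher and 1 lower. *Rrm2*, a subunit of the enzyme that makes deoxynucleotides, had the largest of these differences at 0.78 (adjusted p = 0.301), and *Cdk1*, the kinase of mitotic entry, was the lower one at -0.45 (adjusted p = 0.644). Of 9 erythroid genes all had positive differences, with a median of 0.26, and 1 reached an unadjusted p under 0.05. This was *Slc4a1*, the anion exchanger of red cells, with 8.38, 7.01 and 9.05 at 4 weeks and 6.84, 7.68 and 6.92 at 2 weeks (difference 1.00, adjusted p = 0.636), so its groups overlapped. Macrophage markers had 4 of 18 higher and 1 lower at that threshold (4.11% and 3.25% of all genes), with a median of 0.10. *Tyrobp*, a signalling adaptor of myeloid cells, had a difference of 0.74 (adjusted p = 0.218), and *Mrc1*, the mannose receptor of resident macrophages, one of -0.60 (adjusted p = 0.597). The part of neutrophils and red cell precursors in the histone values was not tested.

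The single called gene lower at 4 weeks (0.0087% of all genes) was *Mup6*, 1 of the major urinary proteins, which are carriers of pheromones made mainly by the liver. It had 5.89, 6.0 and 6.21 at 4 weeks, against 7.12, 8.48 and 7.65 at 2 weeks. The difference was -1.72 (SE 0.28, adjusted p = 0.0447), and the intensity at 2 weeks was 3.29 times that at 4 weeks. These genes are near-identical copies, and a probe may read several of them. *Mup2* (-1.95, adjusted p = 0.262) and *Mup20* (-1.71, adjusted p = 0.312) had lower values on every 4-week array than on any 2-week array without passing the threshold.

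The remaining genes with the largest decreases all missed the adjusted threshold. *Cyp2e1*, a cytochrome P450 of liver and fat, had 6.16, 6.64 and 6.99 at 4 weeks, against 8.42, 9.87 and 7.44 at 2 weeks (difference -1.98, adjusted p = 0.230). *Lpl*, the lipase that frees fatty acids from circulating fat, had 8.28, 8.09 and 8.26 at 4 weeks, against 9.55, 11.05 and 8.70 at 2 weeks (difference -1.56, adjusted p = 0.378). *Cidec*, a coat protein of fat droplets, had a difference of -1.51 (adjusted p = 0.461). In each of these the highest array was replicate 2 of week 2.

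Adipocyte markers as a list had differences below 0 in all 15 members and a median of -1.17. At an unadjusted p under 0.05, where 3.25% and 4.11% of all genes lie, 8 were lower and 0 higher. None passed the adjusted threshold. *Ces1d*, a carboxylesterase of fat and liver, had 6.15, 7.28 and 7.09 at 4 weeks, against 8.54, 10.33 and 7.25 at 2 weeks (difference -1.87, adjusted p = 0.472). *Adipoq*, the gene of the fat hormone adiponectin, had 6.13, 6.19 and 7.08 at 4 weeks, against 7.43, 8.94 and 6.54 at 2 weeks (difference -1.17, adjusted p = 0.625). In both genes the groups overlapped. The mean level of the list was 6.49, 6.76 and 6.98 on the 4-week arrays and 7.56, 8.92 and 6.83 on the 2-week arrays. Without 2-week replicate 2 the median difference of the list was -0.36 and 4 members were lower at an unadjusted p under 0.05.

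**Figure D3:**
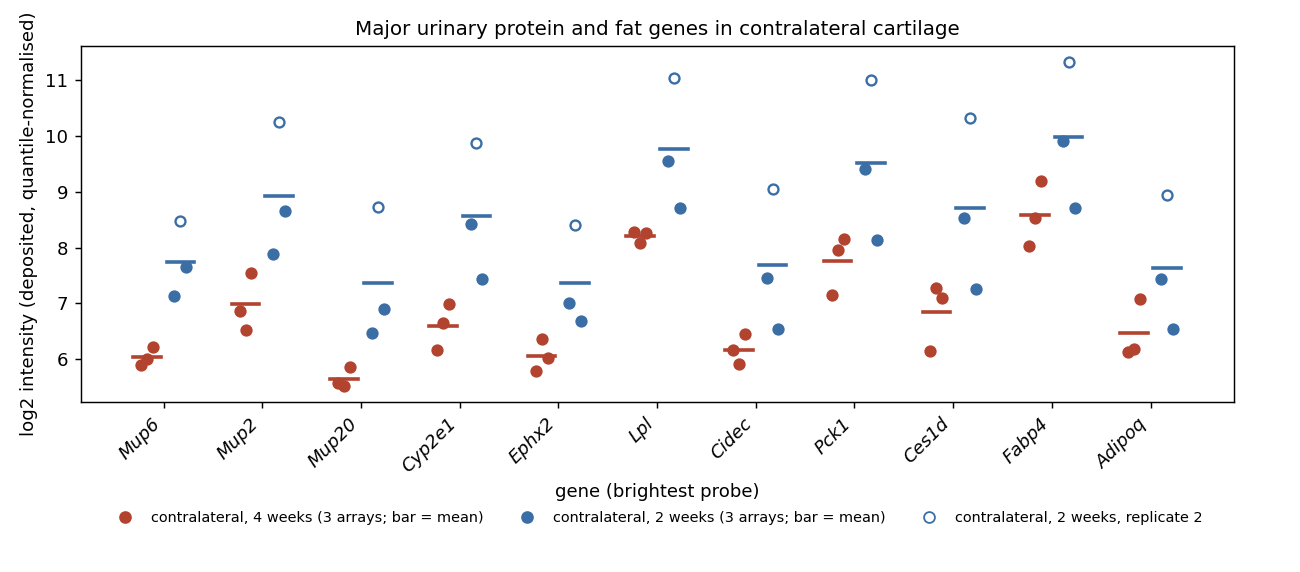
Log2 intensity (vertical axis) of 3 major urinary protein genes and 8 genes of fat or liver metabolism (horizontal axis), each point 1 contralateral array and each bar the mean of 3 arrays, 4 weeks left of 2 weeks. The open circle, 2-week replicate 2, is the highest point in every gene: for *Lpl* the 4-week arrays lie between 8.09 and 8.28, and the open circle lies at 11.05.

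Of 22 chondrocyte genes 0 passed the adjusted threshold. At an unadjusted p under 0.05, 0 were higher and 3 lower, where 4.11% and 3.25% of all genes lie. The median difference was -0.22, with 15 of the 22 below 0 and the lowest at -0.85. *Col2a1*, the chain of type II collagen, had 11.95, 12.04 and 11.92 at 4 weeks, against 12.30, 12.05 and 12.26 at 2 weeks (difference -0.23, SE 0.14, adjusted p = 0.760). *Acan*, the gene of aggrecan, had 11.73, 11.32 and 11.43 at 4 weeks and 11.62, 11.52 and 11.82 at 2 weeks (difference -0.16, SE 0.16, adjusted p = 0.863). *Hapln1*, the link protein that ties aggrecan to hyaluronan, had a difference of -0.27 (adjusted p = 0.738), and *Col10a1*, the collagen of hypertrophic chondrocytes, one of -0.36 (adjusted p = 0.710).

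The 3 lower chondrocyte genes were *Matn4*, a matrilin that links matrix fibrils (-0.85, adjusted p = 0.575), *Col9a1* (-0.62, adjusted p = 0.678, mean level 6.09 at 4 weeks and 6.72 at 2 weeks) and *Col9a2* (-0.44, adjusted p = 0.490), chains of the collagen that decorates type II fibrils. Of these, *Col9a2* alone had groups that did not overlap, with 9.13, 8.90 and 9.08 at 4 weeks and 9.55, 9.41 and 9.47 at 2 weeks. Over 31 collagen chains the median difference was -0.18. At an unadjusted p under 0.05, where 4.11% and 3.25% of all genes lie, 0 were higher and 5 lower. *Col27a1*, a fibrillar collagen of cartilage, was one of them, at -0.52 (adjusted p = 0.408).

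Other matrix and signalling genes with separate groups missed the adjusted threshold as well. *Tnn*, the tenascin of bone and remodelling tissue, had 6.28, 6.0 and 6.08 at 4 weeks, against 7.90, 6.53 and 7.32 at 2 weeks (difference -1.13, adjusted p = 0.271). *Ptgs2*, the inducible enzyme of prostaglandin synthesis, had 5.94, 6.18 and 6.41 at 4 weeks, against 6.90, 7.15 and 7.03 at 2 weeks (difference -0.85, adjusted p = 0.0998). *Sfrp2*, a secreted modulator of Wnt signals, had 6.68, 6.78 and 6.44 at 4 weeks and 7.36, 7.22 and 7.72 at 2 weeks (difference -0.80, adjusted p = 0.173). *Grem1*, a secreted antagonist of BMPs, had 10.02, 9.44 and 9.20 at 4 weeks and 10.52, 10.17 and 10.46 at 2 weeks (difference -0.83, adjusted p = 0.289). *Serpina1e*, a paralog of alpha-1-antitrypsin, had 9.63, 9.52 and 9.57 at 4 weeks, against 8.91, 8.85 and 8.90 at 2 weeks (difference 0.68, adjusted p = 0.120), with the caveat that its paralogs are near-identical.

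Among the other lists, none of the members of osteoblasts, osteoclasts, endothelium, pericytes, fibroblasts and synovium, tendon, circadian clock, hypoxia, heat shock, interferon response or cholesterol synthesis passed the adjusted threshold, and the medians of these lists lay between -0.23 and 0.09. In 12 of 13 endothelial genes the difference was below 0. At an unadjusted p under 0.05, where 3.25% of all genes were lower, 2 were lower, among them *Emcn*, a sialomucin of capillaries (-0.54, adjusted p = 0.569). Ribosomal protein genes had a median of 0.10 and those of oxidative phosphorylation one of 0.06.

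The operated knees of mice from the same weeks were compared over the same interval. In DMM cartilage 585 of 22999 probes were called between 4 and 2 weeks (2.54%), against 34 in contralateral cartilage. Neutrophil genes had a median difference of 2.21 in operated knees and 1.27 in contralateral knees, with 14 and 6 of 18 members called higher, where 2.29% of all genes were called higher in operated knees. Histone genes had a median of 1.15 with 25 of 29 called higher in operated knees, and 0.53 with 0 called in contralateral knees. Erythroid genes had a median of 1.42 in operated knees and 0.26 in contralateral knees. Contractile muscle genes had a median of 0.73 in operated knees and 0.98 in contralateral knees, with 14 and 8 of 27 members called higher. Their levels were lower in the operated knees (mean level of the list 7.21 at 4 weeks and 6.32 at 2 weeks, against 8.29 and 7.55 in contralateral knees). Adipocyte markers had a median of 0.32 in operated knees and -1.17 in contralateral knees. Both leaned on 1 array. In operated knees the mean level of the list was 6.305, 7.918 and 6.508 at 4 weeks and 6.625, 6.686 and 6.501 at 2 weeks. Only 4-week replicate 2 lay above all 2-week arrays there. In contralateral knees the median was -0.36 without 2-week replicate 2.

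The change was also tested as a difference between the knees, in 1 limma fit of all 18 arrays, and 0 probes passed the adjusted threshold (smallest adjusted p = 0.813), with 1250 probes at an unadjusted p under 0.05 (5.44%). With only the 12 arrays of weeks 2 and 4 in the fit the smallest adjusted p was 0.0667, again with 0 probes called. For *Mpo* the change in operated knees exceeded that in contralateral knees by 1.99 (adjusted p = 0.896), for *Prg2* by 1.66 (adjusted p = 0.896) and for *Ltf* by 1.68 (adjusted p = 0.896). For *Actc1* it was smaller in operated knees, by -1.58 (adjusted p = 0.896), where the gene had 5.46, 6.06 and 5.80 at 4 weeks and 5.87, 6.11 and 5.30 at 2 weeks. These adjusted p-values come from the limma fit of all 18 arrays. The spread in that fit also takes in the week 8 arrays, where *Mpo* had 9.01, 5.98 and 9.81 in contralateral knees. They therefore do not show that the 2 knees changed alike. The operated and contralateral knees of a week belong to the same mice, but which pools share mice is not given in the labels used here, so the arrays were taken as unpaired.

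**Figure D4:**
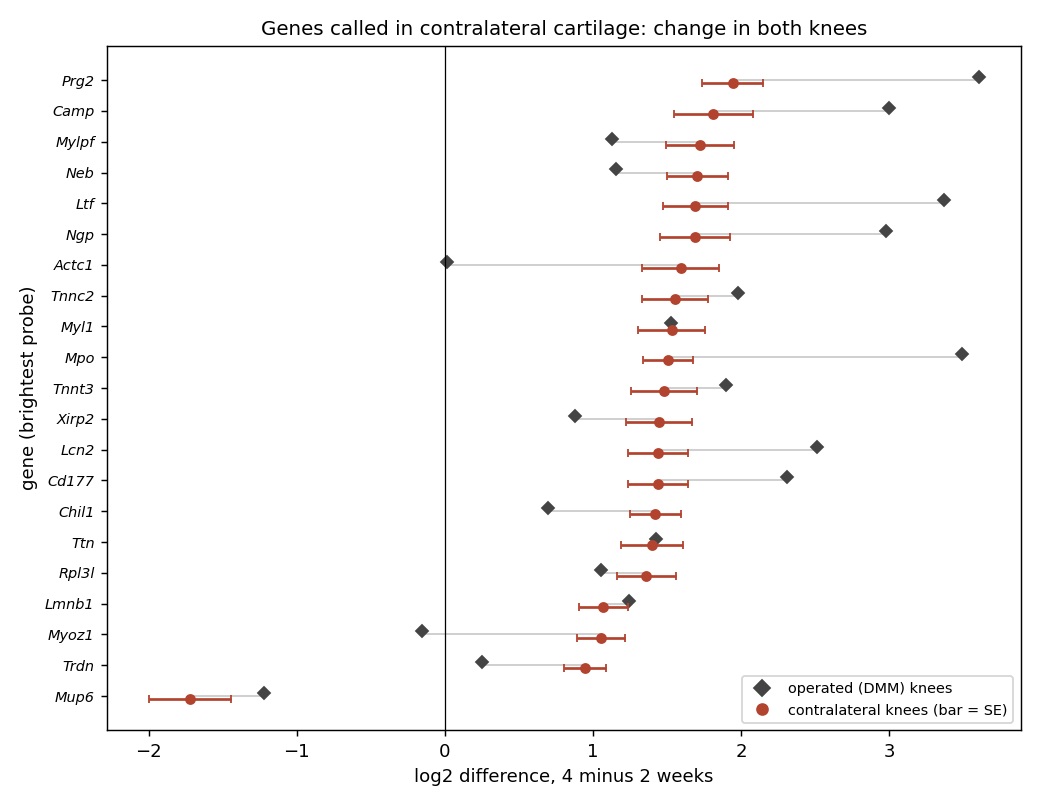
Log2 difference between 4 and 2 weeks (horizontal axis) of the 21 genes whose brightest probe was called in contralateral cartilage (vertical axis), diamonds for operated knees and circles with SE bars for contralateral knees. Granule genes such as *Mpo* lie further right in operated knees (3.49 against 1.50), while *Actc1* lies near 0 there (0.02 against 1.59).

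The contralateral arrays of week 8 show how far both groups of genes can vary between pools. *Camp* had 8.97, 6.42 and 9.29 on the 3 arrays of 8 weeks, and *Mpo* had 9.01, 5.98 and 9.81. *Tnnc2* had 7.69, 10.55 and 7.30 there, and *Mylpf* 7.24, 9.59 and 7.25. Replicate 2 of week 8 was thus low in granule genes and high in muscle genes, and replicates 1 and 3 were the reverse. In these 4 genes all 3 arrays of 4 weeks lay above all 3 of 2 weeks, but that order was a condition for naming them.

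**Figure D5:**
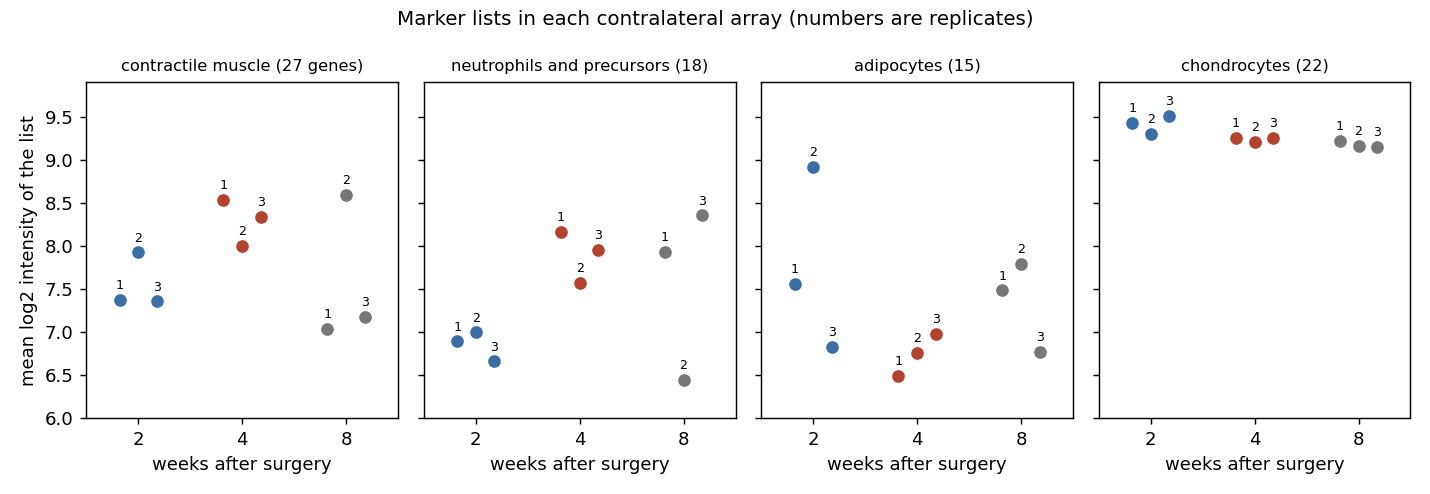
Mean log2 intensity (vertical axis) of 4 marker lists on each contralateral array at 2, 4 and 8 weeks after surgery (horizontal axis), each point 1 array with its replicate number. The neutrophil list lies at 6.66 to 7.0 at 2 weeks, 7.57 to 8.16 at 4 weeks and 6.45 to 8.36 at 8 weeks, and the chondrocyte list between 9.15 and 9.51 throughout.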

How the data were processed

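Cartilage RNA of 18 pools of 8 mice each was hybridised by the authors to Illumina mouse bead arrays. The deposited log2 values, normalised by the authors across all arrays with lumi 2.8.0 in R 2.15.0 per the submitters' processing notes, were used as they stand. A second deposited table, of raw signals with detection p-values, was not used, because its 36 columns match no array's label, so no probe was filtered for detection, and the alternatives that need signals were not run. The number of arrays limits the precision, and the smallest exact two-sided permutation p for 3 against 3 arrays is 0.1.

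The 3 contralateral arrays of week 4 were compared with the 3 of week 2 in limma 3.58.1 (R 4.3.3), with moderated variances and Benjamini-Hochberg adjustment over 22999 probes at a threshold of 0.05. The difference between operated and contralateral change was fitted over all 18 arrays. The platform annotation gave 1 gene for 18998 probes, several for 6 and none for 3995. Replicate numbers were not used to pair the arrays in the main fit, and the weeks are different mice. The comparison, the 41 gene lists and the tests were chosen with earlier results of these data known. Named genes are the 10 largest increases and decreases among called genes, filled with genes at an unadjusted p under 0.05 whose groups do not overlap, up to 2 per direction from each list, defining genes of each cell type, and up to 10 genes called only under an alternative. Other genes, such as members of a list named for their role and further called genes, were chosen after their values were seen. The fit was tested on simulated data. Alternatives were normalisation, the arrays in the fit, variance settings, array weights, a replicate block, a brightness filter, the mean over a gene's probes and leaving out each array. Figures were drawn with matplotlib 3.10.9.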

Additional observations from a re-analysis of the deposited data

Results flagged for a closer look

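*Grem1*, the BMP antagonist, moved in opposite directions in the 2 knees, which is why it is listed here. In operated knees it had 8.98, 8.17 and 8.81 at 4 weeks, against 8.11, 7.71 and 7.57 at 2 weeks (log2 difference 0.86, adjusted p = 0.0443 by limma). In contralateral knees every 4-week array lay below every 2-week array, with a log2 difference of -0.83 (adjusted p = 0.289). The difference between both changes was 1.69, and it did not pass the adjusted threshold in the limma fit of all 18 arrays (adjusted p = 0.813).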

How the results depend on the processing

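Against 34 called probes (33 higher, 1 lower), limma called 1 (1 higher, 0 lower) with all 18 arrays or with the 9 contralateral arrays in 1 fit, 52 (50 and 2) with robust variances that follow intensity, 70 (67 and 3) with array weights, 18 (18 and 0) with the replicate block and 12 genes (12 and 0) with a gene's probes averaged. Of the 18 under the block 15 were among the 34, and by brightest probe the contractile list had 0 calls and the neutrophil list 5. The contralateral arrays of equal number in weeks 4 and 2 correlated in their deviations between -0.015 and 0.024. Such a weak correlation cannot exclude an effect shared by some genes. Cyclic loess called 32 probes, 0 of them lower. Leaving out 1 array gave 0 to 70 called probes, 0 to 68 higher and 0 to 5 lower, with 0 without 4-week replicate 1 (smallest adjusted p = 0.0737), 7 without 4-week replicate 3, 12 without 2-week replicate 1, 13 without 2-week replicate 3, 65 without 2-week replicate 2 and 70 without 4-week replicate 2. All 34 kept their direction under each of these settings that was fitted on probes, where the filter on brighter probes kept 30 of them in the test, all with the same sign. Except under another normalisation this was fixed in advance, because the groups of arrays of all 34 did not overlap. At an unadjusted p under 0.05 there were 916 probes (7.97%) with only brighter probes tested and 831 genes (7.23%) with a gene's probes averaged, beside 1686 of all probes (7.33%), so the counts differ through the number of tests. Of the named genes, *Tpm3* alone turned its sign by more than the SD between its arrays, to 0.39 (adjusted p = 0.465) with the mean of its probes. Smaller turns around 0 in genes with an unadjusted p of 0.05 or more, such as *Sox9*, were not counted. The difference between the knees stayed at 0 called probes in all 16 alternatives, with smallest adjusted p-values from 0.0667 (only the 12 arrays of weeks 2 and 4) and 0.0867 (without DMM 2-week replicate 1) to 1 (without contralateral 2-week replicate 2). The cause of the other changes was not tested. Detection above background could not be read, which limits the values of dim probes most.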
